A study of Mus musculus with 2 samples.

Results

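The genes described here are 8 cathepsins (Ctsa, Ctsb, Ctsc, Ctsd, Ctsh, Ctsl, Ctss and Ctsz), legumain (Lgmn) and cystatin C (Cst3), followed across the cell types of the mouse colon lamina propria. They were taken by symbol, and all 10 were present among the 31053 features counted in both libraries. There were 2 libraries, a wild-type (WT) one and one in which the mice carried a knockout (KO) of the long non-coding RNA that the labels call LncRNA17Rik and the study calls lncLy6c. Both came from pooled 8-week-old male mice, with the KO line on a C57BL/6J background. Per the labels the cells were cd11b+, were isolated on a Percoll gradient and were cleared of dead cells before droplet capture, in which every captured RNA molecule carries a unique molecular identifier (UMI). With 1 library per genotype there is no replicate check, so no test between genotypes was made. Differences are given with 95% intervals that cover counting error only.

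Cathepsins are proteases of the lysosome. Most are cysteine proteases, Ctsd is an aspartic protease and Ctsa is a serine carboxypeptidase. They are made as inactive precursors, act in the acidic endosomes and lysosomes, and in macrophages and dendritic cells degrade what has been taken up and cut proteins into peptides for MHC class II. Legumain cuts after asparagine and helps to mature several cathepsins, while cystatin C is a secreted inhibitor of cysteine cathepsins and of legumain.

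After filtering, 2597 WT and 2514 KO cells were kept, with a median of 5073 and 6564.5 UMIs per cell. The cell numbers stated in the study differ from those in the files, for a reason not given in the sources used here. The libraries shared 1 cell barcode before filtering and 0 after it. Clusters were named from marker genes that include none of the 10 genes, and "-like" marks a name that rests on markers only. Of 21 clusters 2 stayed unnamed, and 8 classes had at least 50 cells in each library. These were resident macrophage-like (315 WT and 131 KO cells, here resident-like for short), inflammatory monocyte-like (560 and 381, here monocyte-like), conventional dendritic cell type 1 or cDC1-like (118 and 291), cDC2-like (231 and 496), neutrophil-like (84 and 265), eosinophil-like (224 and 409), B cell-like (200 and 85) and T cell-like cells (241 and 110). Itgam, which encodes CD11b, was detected in 40.0% of WT and 57.8% of KO cells. The libraries also held 241 WT T cell-like and 235 WT plasma cell-like cells, types that are not defined by CD11b. No feature carries the symbol LncRNA17Rik, so the deletion could not be checked from the counts.

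Before the levels, short stretches around start sites are shown for the genes whose ratios are followed most closely below. RefSeq windows (GRCm38.p6, 250 bases before to 50 after a start site, 300 in all) were matched for 8 of the 10 genes in 10 windows. Both strands were searched for CACGTG (the E-box core bound by TFEB, TFE3 and MITF, regulators of lysosomal genes), its longer form, which is CACGTG with GT directly before and AC directly after it, GAGGAAGT (an ETS motif of the kind PU.1 binds) and a repeat of GAAA with any 2 bases between (of the interferon-response type). CACGTG was found in windows of Ctsa, Ctsd, Ctsl and Lgmn, and for 8.09% of all 27025 genes with a window (7.15% of all 32851 windows). The longer form was found in 0 of the 8 genes and for 0.370% of all genes (0.326% of windows). GAGGAAGT was found for Ctsc and Ctss (3.69% of genes and 3.20% of windows). The GAAA repeat was found for Ctss (3.99% of genes and 3.44% of windows). Each line gives 30 bases, 5′ to 3′ on the strand of the gene, with the motif in capitals. Lgmn and Ctss are shown because both were lower in KO macrophages, Ctsc because it shares a motif with Ctss, and Ctsd because its pattern across classes differed from that of the others.
Lgmn, chr12:102439124-102439153, minus strand: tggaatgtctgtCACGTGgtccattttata
Ctsd, chr7:142387908-142387937, minus strand: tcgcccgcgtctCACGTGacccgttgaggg
Ctss, chr3:95526773-95526802, plus strand: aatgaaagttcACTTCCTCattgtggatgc
Ctss, chr3:95526755-95526784, plus strand: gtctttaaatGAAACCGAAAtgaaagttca
Ctsc, chr7:88277923-88277952, plus strand: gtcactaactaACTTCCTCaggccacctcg
Relative to the RefSeq start site of its window, the motif begins at position -49 for Lgmn and -98 for Ctsd. It begins at -2 and -21 for Ctss and at -151 for Ctsc. Start sites differ between annotations. In GENCODE M21 the minus-strand genes Lgmn and Ctsd begin at 102439813 and 142388038, so the sites shown lie inside both genes there. In Ctss and Ctsc the ETS motif lies on the opposite strand and is read as ACTTCCTC. A match describes the letters in the window and was not tested as a binding site.

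Most of the 10 genes had their highest levels in mononuclear phagocytes. Levels are given in UMIs per 1000000 UMIs (CPM). Among the 8 classes compared, 9 of 10 had their highest level in a macrophage, monocyte or dendritic class in both libraries. The share of all genes that peak in these classes was not computed, so this count has no background beside it. Resident-like cells held the highest level of Ctsa, Ctsb, Ctsc, Ctsh, Ctsl, Ctss, Ctsz and Lgmn, and cDC1-like cells that of Cst3. The exception was Ctsd, highest in neutrophil-like cells of the WT and in eosinophil-like cells of the KO library. Together the 10 genes supplied 1.31% of all UMIs of WT and 1.04% of KO resident-like cells, 0.954% and 0.814% in monocyte-like cells, 1.03% and 1.34% in cDC1-like cells and 0.689% and 0.866% in cDC2-like cells. Neutrophil-like cells gave 0.474% and 0.458%, eosinophil-like cells 0.480% and 0.289%, B cell-like cells 0.191% and 0.122%, and T cell-like cells 0.0928% and 0.175%. The named genes were not used to build or name the classes.

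**Figure D1:**
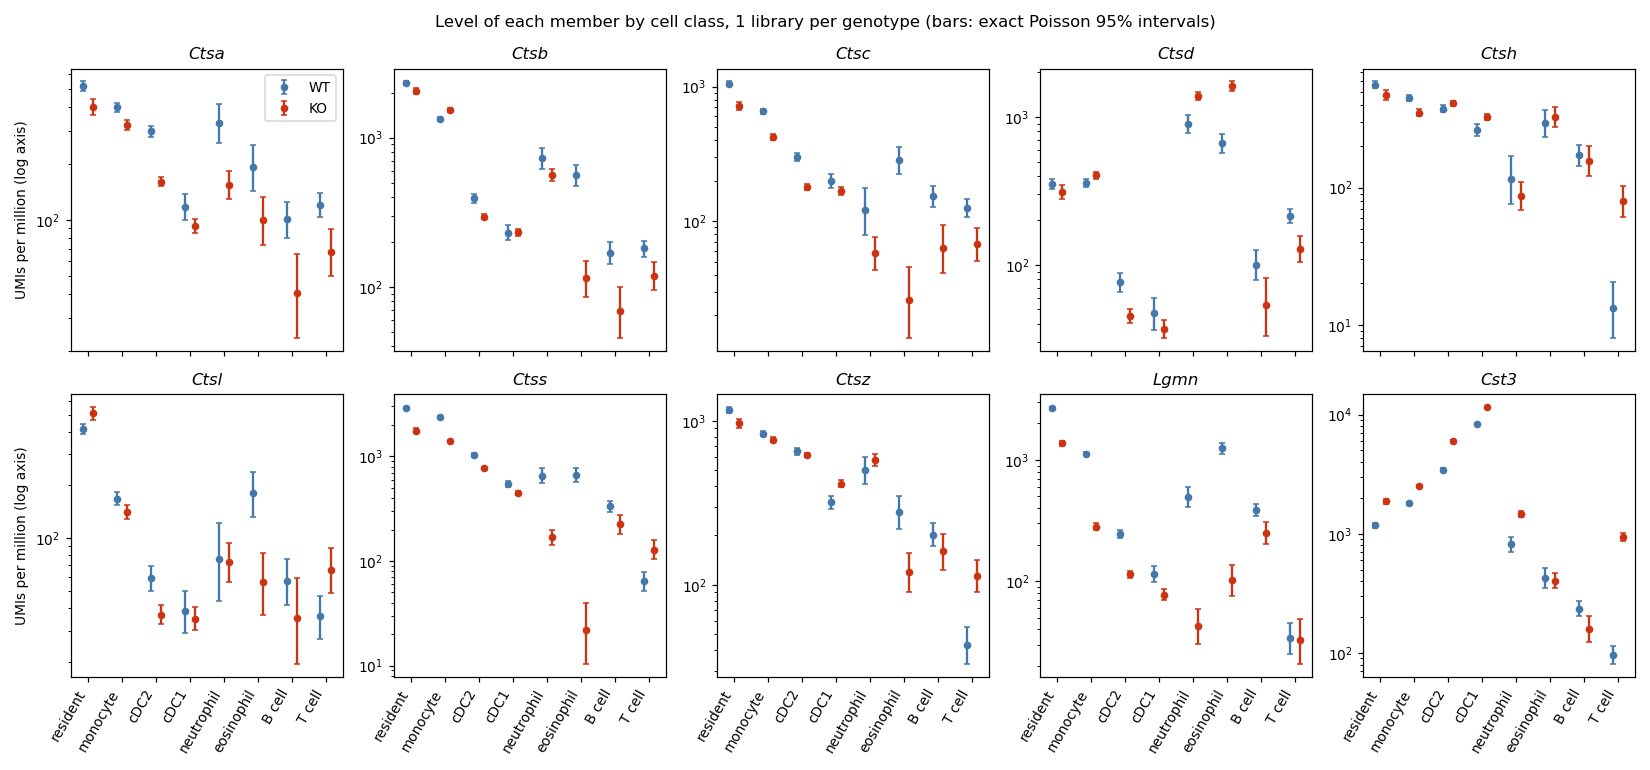
Level of each gene (UMIs per 1000000 UMIs, log axis) in 8 cell classes, WT in blue and KO in red, 1 library each, with exact Poisson 95% intervals as bars. Of the panels 9 peak in a macrophage or dendritic class, a count with no share of all genes beside it. Ctsd peaks in neutrophil-like and eosinophil-like cells (900 and 1389 CPM, 666 and 1619 CPM in WT and KO).

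Cystatin C set the dendritic cells apart. Cst3 stood at 8402 in WT and 11537 CPM in KO cDC1-like cells, followed in both libraries by cDC2-like (3461 and 6019 CPM), monocyte-like (1801 and 2520 CPM), resident-like (1175 and 1869 CPM) and neutrophil-like cells (820 and 1473 CPM). No neighbours in this order had overlapping intervals. The range from the highest to the lowest of the 8 classes compared was 87.2-fold in WT, where T cell-like cells were lowest (96.4 CPM). In KO it was 72.1-fold, with B cell-like cells lowest (160 CPM). Among mature dendritic cell-like cells, of which there were only 19 in WT and 42 in KO, Cst3 was at 6481 and 9033 CPM.

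Among the 4 compared macrophage and dendritic classes legumain had the opposite order. Lgmn was at 2673 in WT and 1371 CPM in KO resident-like cells, 1129 and 283 CPM in monocyte-like cells, 245 and 114 CPM in cDC2-like cells, and 115 and 77.6 CPM in cDC1-like cells. The mature dendritic cell-like cells did not follow this order, at 375 and 181 CPM. WT eosinophil-like cells (1249 CPM) overlapped with monocyte-like cells, and in KO the B cell-like cells (251 CPM, against 386 CPM in WT) did. T cell-like cells were lowest in both (34.0 and 32.5 CPM). The step from resident-like cells to the next class was 2.14-fold in WT and 4.85-fold in KO. In NK cell-like cells 0 UMIs of Lgmn were counted among 26 WT and 41 KO cells.

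Among the endopeptidases, Ctss, which trims the MHC class II invariant chain, followed the order resident, monocyte, cDC2 in both libraries. Its levels were 2906 and 1766 CPM in WT and KO resident-like cells, 2404 and 1406 CPM in monocyte-like cells, 1031 and 778 CPM in cDC2-like cells and 546 and 444 CPM in cDC1-like cells. B cell-like cells, which also present antigen, were at 332 and 226 CPM, against 63.8 and 129 CPM in T cell-like cells. Ctsb, a cysteine protease abundant in many lysosomes, was at 2308 and 2052 CPM in resident-like, 1338 and 1522 CPM in monocyte-like and 726 and 561 CPM in neutrophil-like cells. Ctsl, a broad endopeptidase, was at 414 and 509 CPM in resident-like cells and at 167 and 141 CPM in monocyte-like cells. Its highest level overall lay outside the compared classes, in the 80 WT and 21 KO fibroblast-like cells (855 and 856 CPM).

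Among the classes compared, the cysteine exopeptidases were also highest in resident-like cells. Ctsc, which activates the serine proteases of granules, was at 1046 and 716 CPM in resident-like and 656 and 422 CPM in monocyte-like cells, and at most 300 CPM in any of the other compared classes. Ctsz, a carboxypeptidase, was at 1168 and 967 CPM in resident-like, 836 and 767 CPM in monocyte-like, 650 and 617 CPM in cDC2-like and 499 and 576 CPM in neutrophil-like cells. Ctsh, an aminopeptidase, was present in all macrophage and dendritic classes, with 562 and 474 CPM in resident-like, 378 and 411 CPM in cDC2-like and 264 and 329 CPM in cDC1-like cells. The few mature dendritic cell-like cells stood higher, at 612 and 480 CPM. In the KO library the Ctsh intervals of monocyte-like (352 CPM), eosinophil-like (329 CPM) and cDC1-like cells overlapped. Ctsa, which besides cutting peptides protects lysosomal galactosidase and neuraminidase, was at 517 and 403 CPM in resident-like and 399 and 321 CPM in monocyte-like cells.

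The aspartic protease Ctsd was the only member whose highest level among the compared classes was in granulocytes. Its level was 900 in WT and 1389 CPM in KO neutrophil-like cells, and 666 and 1619 CPM in eosinophil-like cells. Resident-like cells had 352 and 311 CPM and monocyte-like cells 359 and 404 CPM, and the WT intervals of this pair overlapped. Among the compared classes dendritic cells were lowest, at 76.6 and 45.4 CPM in cDC2-like and 47.2 and 36.9 CPM in cDC1-like cells. In NK cell-like cells Ctsd supplied 45.6% and 53.6% of the UMIs of the 10 genes (147 and 166 UMIs in all).

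The proteases and the inhibitor can be set side by side as UMIs of the 9 proteases per UMI of Cst3. This count includes Ctsd and Ctsa, which are not cysteine proteases, and in it each UMI is 1 captured molecule and is not divided by transcript length. WT resident-like cells held 10.2 protease UMIs per Cst3 UMI and WT monocyte-like cells 4.30. The KO values were 4.58 and 2.23. In cDC2-like cells the ratio was 0.991 in WT and 0.438 in KO, and in cDC1-like cells 0.223 and 0.158. Cst3 alone made up 81.8% of WT and 86.3% of KO member UMIs in cDC1-like cells, 50.2% and 69.5% in cDC2-like cells, 18.9% and 31.0% in monocyte-like cells and 8.95% and 17.9% in resident-like cells. In all 4 classes the KO library had fewer protease UMIs per Cst3 UMI.

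**Figure D2:**
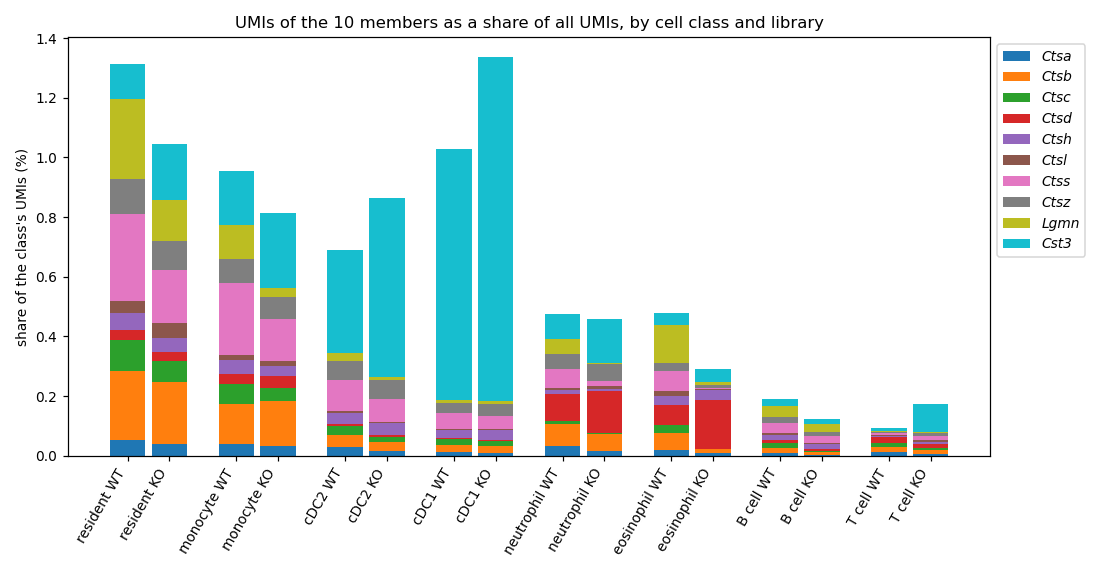
UMIs of the 10 genes as a share of all UMIs (%) in each class, stacked by gene, with WT and KO side by side, 1 library each and no error bars. Cst3 fills most of the cDC1-like bars (81.8% and 86.3% of member UMIs) and is the smaller part in resident-like cells (8.95% and 17.9%), where Ctss, Lgmn and Ctsb are the widest bands in WT and Ctsb, Cst3 and Ctss in KO.

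In resident-like cells of KO mice Lgmn and Ctss were lower and Cst3 was higher. Lgmn was at 2673 CPM in the WT library (5289 UMIs) and 1371 in the KO library (1431 UMIs), which gives a log2 ratio of KO over WT of -0.96 (-1.05 to -0.88), or 1.95-fold lower. Ctss was at 2906 and 1766 CPM (log2 ratio -0.72, -0.79 to -0.64), and Ctsc at 1046 and 716 CPM (log2 ratio -0.55, -0.67 to -0.43). Cst3 was at 1175 and 1869 CPM (log2 ratio 0.67, 0.58 to 0.76). Ctsl was the only protease at a higher level in KO, with a log2 ratio of 0.30 (0.14 to 0.46), but it was negative at Leiden resolution 0.5 (-0.09), under gating by marker UMIs (-0.23), with each library clustered alone (-0.50) and with the unnamed cluster led by Retnla and Ccl24 counted as resident (-0.46). The other ratios lay between -0.36 (Ctsa) and -0.17 (Ctsb), and the interval of Ctsd (-0.18, -0.37 to 0.02) included 0.

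No member reached a 2-fold difference in this class in the main setting. Lgmn was past 2-fold at Leiden resolution 0.5 (-1.22), under gating, under the stricter cell filter (-1.07) and with high doublet scores removed (-1.04). With each library clustered alone Lgmn (-1.62) and Ctss (-1.04) were, and with the Retnla and Ccl24 cluster counted as resident Lgmn was (-1.58). Across all 5751 genes with at least 50 UMIs, 2.75% were at least 2-fold higher and 6.99% at least 2-fold lower in KO. The median log2 ratio was -0.26 over the 10 members and -0.23 over all genes. Relative to that all-gene median, Lgmn was at -0.73, Ctss at -0.49, Ctsc at -0.32 and Cst3 at 0.90, whereas Ctsb and Ctsd changed sign (0.06 and 0.06), and Ctsz and Ctsh were at -0.04 and -0.01. The 9 resident macrophage markers summed to 10113 and 10722 CPM in the class, and the 8 monocyte markers to 1224 and 286 CPM. Markers of cDC2, a class with more Cst3, summed to 180 and 456 CPM (8 markers, 0 of them at 0), and those of cDC1 to 484 and 442 CPM. The part of these marker differences in the ratios was not tested.

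In monocyte-like cells Lgmn was lower in KO and was the only member past 2-fold. It was at 1129 CPM in the WT library (3463 UMIs) and 283 in the KO library (923 UMIs), which gives a log2 ratio of -2.00 (-2.10 to -1.89). At least 2-fold lower levels were seen for 6.09% and at least 2-fold higher levels for 2.44% of 7261 genes. Ctss was at 2404 and 1406 CPM (log2 ratio -0.77, -0.83 to -0.72), and Ctsc at 656 and 422 CPM (log2 ratio -0.64, -0.74 to -0.54). Cst3 was again higher, at 1801 and 2520 CPM (log2 ratio 0.48, 0.44 to 0.53). With cells gated by marker UMIs in place of clusters, Lgmn stayed lower (-0.90), but Ctss (0.24), Ctsc (0.48), Ctsa (0.29), Ctsh (0.63), Ctsl (0.67) and Ctsz (0.63) turned positive. In the clustered class Ctsb and Ctsd were slightly higher, at 0.19 (0.13 to 0.25) and 0.17 (0.05 to 0.29), while Ctsh, Ctsa, Ctsl and Ctsz lay between -0.36 and -0.12. Under gating Ctsb and Ctsd were at 0.87 and 0.83, and with each library clustered alone Ctsd was at -0.01. The median was -0.28 over the members and -0.17 over all genes, and relative to the latter Lgmn was at -1.83 and Ctsz changed sign (0.05). The 9 resident macrophage markers summed to 2000 and 782 CPM in this class, with 1 of them at 0 in each library, and its 8 monocyte markers to 6273 and 6997 CPM. Markers of cDC2 summed to 172 and 90.9 CPM and those of cDC1 to 390 and 276 CPM. Markers of plasma cells summed to 1624 and 169 CPM here and to 1323 and 167 CPM in resident-like cells. Their part in the ratios was not tested.

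**Figure D3:**
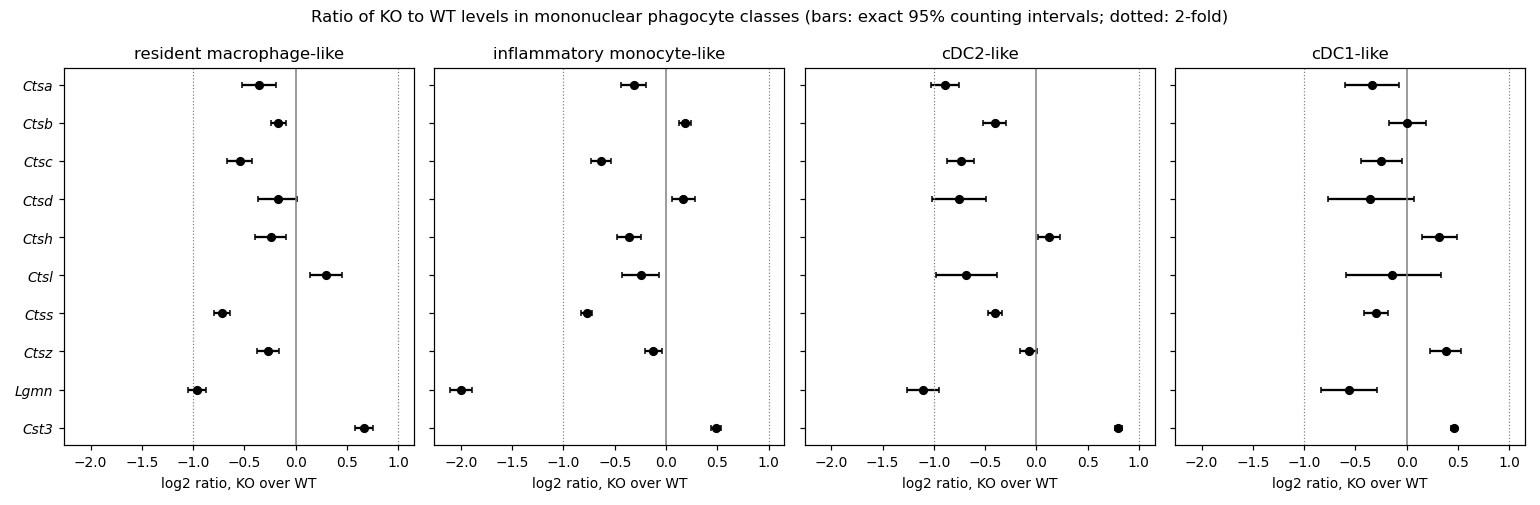
Log2 ratio of KO over WT levels of each gene in 4 mononuclear phagocyte classes, 1 library per genotype, with exact 95% counting intervals as bars and dotted lines at 2-fold. Lgmn lies furthest to the left in each panel (-0.96, -2.00, -1.11 and -0.56) and Cst3 furthest to the right (0.67, 0.48, 0.80 and 0.46).

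The monocyte class was filled by different clusters in the 2 libraries, so its 2 largest clusters are given apart from the rest of the class. The cluster led by Ly6i and Cxcl9 held 496 WT and 80 KO cells, and that led by Chil3 and Ace 31 and 258. Lgmn was at 1248 in WT and 355 CPM in KO in the Ly6i cluster (log2 ratio -1.81, -2.03 to -1.60), and at 543 and 221 CPM in the Chil3 cluster (-1.30, -1.59 to -0.99). Ctss was lower in KO in both, with log2 ratios of -0.82 (-0.93 to -0.72) and -0.57 (-0.72 to -0.42). In the remaining 33 WT and 43 KO cells of the class Lgmn was at 527 and 586 CPM, with an interval that included 0 (0.15, -0.15 to 0.46). Higher in KO there were Ctsl (2.16, 1.53 to 2.84), Ctsd (1.81, 1.20 to 2.46) and Ctsb (0.85, 0.62 to 1.08). Cst3 (0.60, 0.50 to 0.70) and Ctsc (0.41, 0.03 to 0.81) were also higher. Ctsa (-1.35, -1.98 to -0.75), Ctsh (-0.50, -0.97 to -0.03) and Ctss (-0.31, -0.49 to -0.13) were lower in KO there.

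Cst3, Ctsl, Ctsb, Ctsc and Ctsd differed less evenly. Cst3 was at 1514 and 1608 CPM in the Ly6i cluster (log2 ratio 0.09, -0.02 to 0.19) and at 1634 and 2135 CPM in the Chil3 cluster (0.39, 0.23 to 0.55). In the remaining monocyte-like cells it was at 4345 and 6578 CPM (0.60, 0.50 to 0.70). Ctsl was at 184 and 80.2 CPM in the Ly6i cluster (-1.20, -1.68 to -0.75) and at 86.5 and 121 CPM in the Chil3 cluster, where the interval included 0 (-0.20 to 1.26). Ctsb was at 1383 and 1116 CPM in the Ly6i cluster (-0.31, -0.44 to -0.19), against a higher KO level in the class as a whole, and at 1586 and 1633 CPM in the Chil3 cluster (0.04, -0.12 to 0.21). Ctsc was lower in KO in the Ly6i cluster, at 715 and 430 CPM (-0.73, -0.93 to -0.54). It was nearly level in the Chil3 cluster, at 437 and 422 CPM (-0.05, -0.36 to 0.27), and higher in the remaining cells (0.41, 0.03 to 0.81). Ctsd was at 390 and 363 CPM in the Ly6i cluster (-0.10, -0.33 to 0.12) and at 370 and 426 CPM in the Chil3 cluster (0.20, -0.13 to 0.56). A cluster that one library fills more than the other may hold different cells in each.

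**Figure D4:**
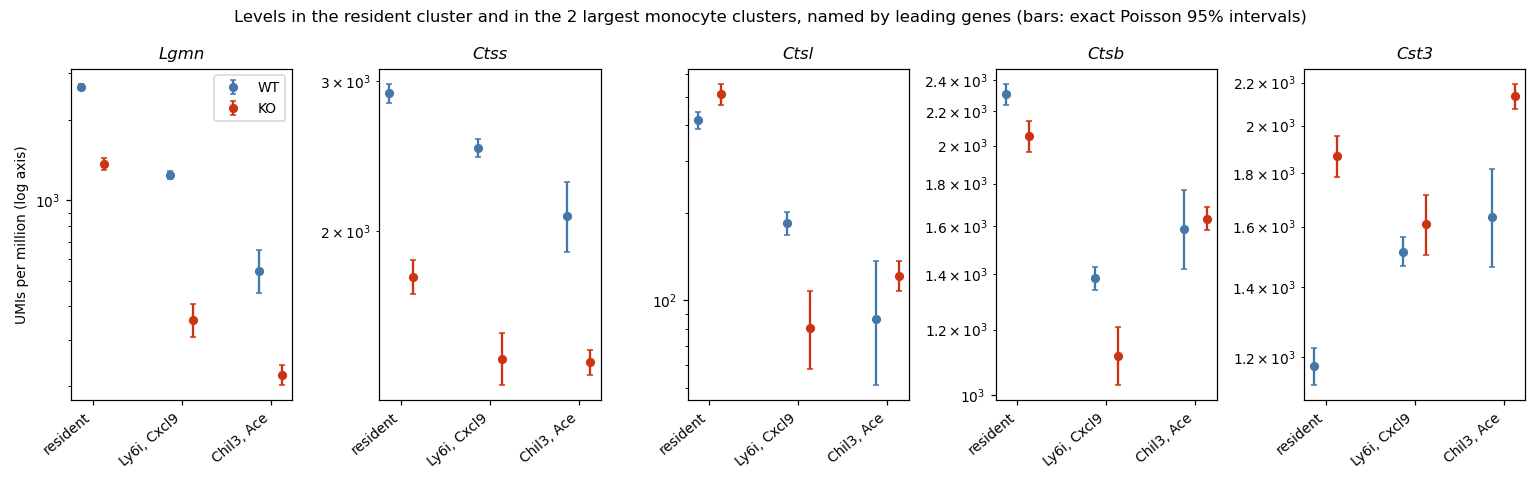
Levels (UMIs per 1000000 UMIs, log axes) of 5 genes in the resident cluster and in the 2 largest monocyte clusters, which are named by leading genes, with WT in blue, KO in red, 1 library each and exact Poisson 95% intervals as bars. Lgmn and Ctss are lower in KO in each cluster shown (the remaining 33 WT and 43 KO monocyte-like cells, where Lgmn was at 527 and 586 CPM, are not drawn), and Ctsl is lower in KO in the Ly6i cluster (184 and 80.2 CPM).

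The cluster led by Retnla, Ccl24 and Lpl was left unnamed because the monocyte marker Fn1 was among its leading genes. It held 19 WT and 150 KO cells. Here Lgmn was at 1269 in WT and 544 CPM in KO, Ctss at 1879 and 1300 CPM, Ctsb at 2173 and 1351 CPM and Cst3 at 1094 and 1560 CPM. With this cluster counted as resident, the Lgmn log2 ratio of that class was -1.58 in place of -0.96 and that of Ctsl was -0.46 in place of 0.30.

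The share of cells with a UMI was compared after each cell had been thinned to 2000 UMIs, because the KO cells were deeper. Among resident-like cells a Lgmn UMI was held by 93.0% of 243 WT cells (interval 89.0 to 95.9) and by 86.4% of 110 KO cells (78.5 to 92.2), where 72 and 21 shallower cells were left out. In monocyte-like cells the shares were 76.3% of 435 WT cells (interval 72.0 to 80.2) and 38.2% of 343 KO cells (33.0 to 43.6), with 125 and 38 left out. Without thinning they were 89.5% and 71.1%. In T cell-like cells, which should hold little, the thinned shares of Lgmn were 3.80% and 2.78%. Cst3 was found in 88.5% and 89.5% of thinned monocyte-like cells, near the upper end of the scale. Thinned to 1000 UMIs the shares were 67.9% of 507 WT cells (interval 63.6 to 71.9) and 79.5% of 365 KO cells (74.9 to 83.5).

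In dendritic cells the same pair of genes stood at the ends of the range. In cDC2-like cells Cst3 was at 3461 CPM in the WT library and 6019 in the KO library, which gives a log2 ratio of 0.80 (0.76 to 0.83), and Lgmn at 245 and 114 CPM (log2 ratio -1.11, -1.26 to -0.95), the only member past 2-fold where 5.31% of 7984 genes were at least 2-fold lower and 2.56% at least 2-fold higher. Relative to the all-gene median of -0.22, Lgmn was at -0.88 and Cst3 at 1.01. Lgmn was also short of 2-fold at Leiden resolution 0.5 (-0.94), with members among the variable genes (-0.65) and under the stricter cell filter (-0.65). Ctsa was at 297 and 160 CPM (log2 ratio -0.89) and Ctsc at 300 and 180 CPM (-0.74). Ctsh (0.12) and Ctsz (-0.08, or 0.14 relative to the all-gene median) were nearly level. In cDC1-like cells no member passed 2-fold, against 1.61% lower and 2.18% higher of 7699 genes. Cst3 was at 8402 and 11537 CPM (0.46, 0.43 to 0.49), Ctsz at 318 and 414 CPM (0.38, 0.23 to 0.53), Ctsh at 264 and 329 CPM (0.32, 0.15 to 0.49) and Lgmn at 115 and 77.6 CPM (-0.56, -0.83 to -0.29). With members among the variable genes Ctsz and Ctsh were nearly level (-0.004 and 0.04). With the mean of per-cell CPM in place of sums Lgmn was past 2-fold (-1.055).

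The cDC1-like class held a cycling cluster (25 WT and 102 KO cells) beside the main one (93 and 189). Cst3 was higher in KO in both, at 8659 and 13610 CPM in the main cluster and 7934 and 9506 CPM in the cycling one. Lgmn was at 114 and 62.7 CPM in the main and 117 and 92.3 CPM in the cycling cluster, and the second interval included 0 (-0.76 to 0.10). Ctsz had log2 ratios of 0.19 (0.001 to 0.39) in the main and 0.59 (0.34 to 0.84) in the cycling cluster. Those of Ctsh were 0.15 (-0.06 to 0.37) and 0.52 (0.24 to 0.81). In the larger cDC2-like cluster alone (228 and 378 cells) Cst3 was at 3478 and 5805 CPM and Lgmn at 237 and 120 CPM. The other cDC2-like cluster, led by Mgl2 and Ccl17, had only 3 WT cells and 118 KO cells.

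Ratios were larger in granulocytes, which gave few UMIs. The name eosinophil-like rests on 3 of 7 markers (Siglecf, Ccr3 and Alox15). In that class eosinophil markers summed to 1167 CPM in WT and 1751 CPM in KO, and neutrophil markers to 7656 and 7500 CPM. In neutrophil-like cells the neutrophil markers summed to 41984 and 79351 CPM. With each library clustered alone, no eosinophil-like class had 50 cells in both libraries. In eosinophil-like cells, a shallow class with a median of 795 and 971 UMIs, 6 members were at least 2-fold lower and 1 at least 2-fold higher in KO, where 5.59% and 6.83% of 2270 genes were. Ctss was at 670 CPM in the WT library (179 UMIs) and 21.7 in the KO library (10 UMIs), which gives a log2 ratio of -4.95 (-6.03 to -4.04), and Lgmn at 1249 and 102 CPM (log2 ratio -3.62, -4.09 to -3.17). Ctsd went the other way, at 666 CPM in WT and higher, at 1619 CPM, in KO (log2 ratio 1.28, 1.04 to 1.53). Ctsc was at 284 and 26.0 CPM, Ctsb at 561 and 115 CPM, Ctsl at 180 and 56.4 CPM and Ctsz at 277 and 119 CPM, all at least 2-fold lower in KO. Ctsa (191 and 99.7 CPM), Ctsh (295 and 329 CPM) and Cst3 (426 and 405 CPM) were within 2-fold. At Leiden resolution 2 only Ctsb (-1.12) and Lgmn (-1.99) were at least 2-fold lower, and under the stricter cell filter only Lgmn (-1.89), with Ctsd short of 2-fold in both (0.95 and 0.93) and several members under 50 UMIs. In neutrophil-like cells 4 members were at least 2-fold lower and 0 higher, where 7.85% and 4.82% of 2343 genes were. Lgmn was at 494 and 43.0 CPM, Ctss at 655 and 168 CPM, Ctsa at 330 and 154 CPM and Ctsc at 120 and 58.1 CPM, whereas Ctsd (900 and 1389 CPM) and Cst3 (820 and 1473 CPM) were higher in KO. Ctsb (726 and 561 CPM) was lower by less than 2-fold, and the intervals of the ratios of Ctsh, Ctsl and Ctsz included 0. The number at least 2-fold lower was 2 with the top 3% of doublet scores removed, with members among the variable genes and relative to the all-gene median.

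Resident macrophage markers moved with these values. The 9 markers summed to 1212 in WT and 121 CPM in KO eosinophil-like cells, with 2 of the 9 at 0 in each, and to 757 and 97.6 CPM in neutrophil-like cells. A UMI of C1qa, C1qb or C1qc was held by 17.9% of WT and 3.02% of KO neutrophil-like cells. These cells carried 88.3% of the 111 WT Lgmn UMIs of the class but 20.3% of its 202 Ctsd UMIs. Without them Lgmn was at 77.8 CPM in WT (13 UMIs) and 38.8 CPM in KO (32 UMIs), and Ctsd at 964 and 1405 CPM. In eosinophil-like cells 17.4% of WT and 2.20% of KO cells held such a UMI, and without them Lgmn was at 699 and 88.8 CPM, Ctss at 400 and 20.0 CPM and Ctsd at 750 and 1644 CPM. The count of members at least 2-fold lower was 1 in place of 4 in neutrophil-like and 3 in place of 6 in eosinophil-like cells, partly because some members then had fewer than the 50 UMIs a call needs. These were Lgmn in neutrophil-like cells and, in eosinophil-like cells, Ctsc (141 and 20.0 CPM) and Ctsl (147 and 37.7 CPM). This split was chosen after seeing the data.

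In B cell-like cells all 10 ratios were below 0. The intervals of Ctsh (-0.58 to 0.32), Ctsl (-1.67 to 0.20) and Ctsz (-0.78 to 0.09) included 0. The median log2 ratio was -0.64 over the members and -0.09 over all genes. At least 2-fold lower were 3 members (Ctsa, Ctsb and Ctsc, at log2 ratios of -1.31, -1.30 and -1.27). Of 3356 genes in this class, 6.47% were at least 2-fold lower and 0.834% higher. Here the resident markers summed to 207 and 22.8 CPM. With the top 3% of doublet scores removed 0 members were at least 2-fold lower in B cell-like cells, with Ctsa at -0.98, Ctsb at -0.36 and Ctsc at -0.92, and Ctsh (0.05) and Ctsz (0.07) turned positive. In T cell-like cells 3 were at least 2-fold higher in KO, where 2.94% of 5074 genes were higher and 10.1% lower. Cst3 was at 96.4 and 943 CPM, Ctsh at 13.2 and 79.9 CPM and Ctsz at 43.0 and 114 CPM. Ctss, at 63.8 and 129 CPM, lay at the 2-fold limit and was just short of it with the prior. The Cst3 UMIs of the KO T cell-like cells lay in few cells, with 89.2% of them in the top 10% of cells, and after thinning 20.7% of WT and 27.8% of KO cells held one. Over all cells Cst3 was at 1705 CPM in the WT and 5571 CPM in the KO library, and resident markers in T cell-like cells summed to 52.7 and 142 CPM. With the top 3% of doublet scores removed, 0 members were at least 2-fold higher in KO T cell-like cells, where the log2 ratio of Cst3 was 0.96 in place of 3.29 and that of Ctsz 0.42 in place of 1.40, and Ctsh had fewer than 50 UMIs. The part of RNA or cells from other classes in these ratios was not tested.

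The pattern of each gene across the 8 classes and both libraries (16 points) was compared with that of 8203 genes, as a description without a test, since the points share libraries and classes. Ctsa and Ctsb were the most alike pair of members (Pearson's r of log2 levels 0.94), followed by Ctsc and Ctss (0.91), and Ctsd and Cst3 were the least alike (-0.34). The gene most like Cst3 was Gm2a (0.97), which encodes the GM2 activator of the lysosome, followed by Tnni2 (0.92) and Fcor (0.91). Cebpb (0.97) and the proton pump subunit gene Atp6v1e1 (0.96) were most like Ctsd, followed by Cd84 (0.94). App (0.96) was most like Ctsz, followed by Tns3 and Mpeg1 (0.93 each), and Mitf (0.94) and the Fc receptor gene Fcgr1 (0.94) were most like Ctsb. Ctsa was followed by Tcirg1 and Tmem106a, Ctsc by Scamp1 and Pltp, Ctsh by Lifr, Eif1a and Prcp, Ctsl by Itgb5, Cd93 and Gdf15, Ctss by Slc29a3, Zcchc24 and Cd40, and Lgmn by Rufy3, Renbp and Epb41l2, with r between 0.90 and 0.94. Pltp overlaps Ctsa on the opposite strand.

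Of 49 other genes of the lysosome and of antigen processing, 48 were found among the features. In resident-like cells 34 had enough UMIs, of which 0 were at least 2-fold higher and 2 at least 2-fold lower, beside 2.75% and 6.99% of all genes. One of these was Cst7, which encodes the cathepsin inhibitor cystatin F, at 29.3 and 10.5 CPM. In monocyte-like cells 35 had enough UMIs, of which 0 were higher and 2 lower, beside 2.44% and 6.09%. Cd74, the MHC class II invariant chain that Ctss trims, was at 10275 CPM in the WT library and 3696 in the KO library, which gives a log2 ratio of -1.48 (-1.51 to -1.44), and Cd63, a membrane protein of late endosomes, at 84.4 and 32.8 CPM. Cd74 went the other way in resident-like (16118 and 26032 CPM), cDC2-like (16655 and 26375 CPM) and cDC1-like cells (12523 and 20464 CPM), with log2 ratios of 0.69, 0.66 and 0.71, while Ctss was lower in KO in each. The 17 lysosomal hydrolases and partners had a median log2 ratio of -0.26 in resident-like and -0.34 in monocyte-like cells, and 14 and 13 of them were lower in KO, beside all-gene medians of -0.23 and -0.17.

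Positions are those of GRCm38 in GENCODE M21. Lgmn (ENSMUSG00000021190) lies at chr12:102394084-102439813 on the minus strand, Cst3 (ENSMUSG00000027447) at chr2:148871722-148875692 on the minus strand with 3 exons, and Ctss (ENSMUSG00000038642) at chr3:95526786-95556403 on the plus strand with 8 exons. Ctsd (ENSMUSG00000007891) at chr7:142375911-142388038 shares its strand with the overlapping gene Gm49369, and Ctsl (ENSMUSG00000021477) at chr13:64359337-64370890 overlaps the processed pseudogene Gm49230 on its own strand, so counts of these 2 could be split by the counting. The 9 features of the placental cathepsin cluster related to Ctsl had 0 UMIs in both libraries.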

How the data were processed

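The authors deposited raw UMI counts per gene and barcode for 1 library per genotype. Per the file headers they were made with Cell Ranger 3.0.2, and the submitters' processing notes name mm10 and Seurat 4. Cells with 200 to 6000 genes and at most 15% mitochondrial UMIs were kept, as in the study. Counts were normalised to 10000 per cell and logged. Both libraries were clustered on 2000 variable genes, without the members, related genes and the study's own genes, with 30 principal components, 15 neighbours and Leiden resolution 1 (scanpy 1.11.5, scikit-learn 1.9.0, leidenalg 0.10.2). A cluster was named from at least 3 fixed markers raised 2-fold (prior 10 CPM, detected in 10% of its cells). Names were rebuilt here and may differ from those of the study. Scrublet called 0 WT and 9 KO cells, too few to have worked, so doublets were kept and removal of the top 3% of scores was an alternative. Sums of UMIs over the cells of a class in 1 library were given per 1000000 (CPM) with exact Poisson intervals, ratios with exact conditional binomial intervals, and shares with exact Clopper-Pearson intervals. These cover counting error only. Calls needed 2-fold (prior 1 CPM) and 50 UMIs over both libraries. The coverage of the Poisson and ratio intervals was checked only on counts simulated as Poisson, which hold no variation between cells or mice. The genes named were all members, with levels in the classes where they are described, related genes only if past 2-fold in either macrophage class, and for each member the 3 genes most alike (at least 200 UMIs). Alternatives varied variable genes, resolution, joint clustering, gating by marker UMIs, filters, doublets, totals, centring, weighting of cells, prior and fold. Members and lists were chosen with earlier results of these data known. One further related gene is not reported here.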

Additional observations from a re-analysis of the deposited data

Results flagged for a closer look

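The KO to WT log2 ratios of Ctsb and Ctsl had opposite signs in the 2 macrophage classes, each with a counting interval that left out 0. For Ctsb the ratio in resident-like cells less that in monocyte-like cells was -0.36, from -0.17 and 0.19. For Ctsl it was 0.54, from 0.30 and -0.25. With 1 library per genotype these differences between classes were not tested. Centred on the median of all genes, Ctsb was at 0.06 in resident-like cells, and with each library clustered alone Ctsl was at -0.50 there. A positive Ctsl ratio in resident-like cells was seen in 11 of 15 alternatives. In monocyte-like cells a negative one was seen in 12 of 15. Several of these alternatives, such as those of prior, totals, centring and weighting, kept the same cells in each class. With only the Ly6i and Cxcl9 cluster kept as monocyte-like, Ctsb was at -0.31 there, which is below its resident-like value. For Ctsl the contrast between the classes had the opposite sign at Leiden resolution 0.5 (-0.09 in resident-like and 0.50 in monocyte-like cells), under gating by marker UMIs (-0.23 and 0.67), with each library clustered alone (-0.50 and -0.27) and with the Retnla and Ccl24 cluster counted as resident (-0.46 and -0.25).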

How the results depend on the processing

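Over the 309 alternative values of the KO to WT ratios in resident-like and monocyte-like cells, 281 kept their sign. Many of these values come from alternatives that kept the same cells in each class, such as those of prior, totals, centring and weighting. Lgmn and Cst3 kept theirs under every alternative run, with log2 ratios of -1.62 to -0.67 and 0.30 to 0.96 in resident-like cells and of -2.58 to -0.90 and 0.09 to 0.82 in monocyte-like cells. Ctss stayed at -1.04 to -0.49 in resident-like cells, but in monocyte-like cells it was at 0.24 under gating by marker UMIs and negative elsewhere, and Ctsc, Ctsa, Ctsh, Ctsl and Ctsz also turned positive under gating (0.29 to 0.67). The number of members highest in mononuclear phagocytes stayed at 9, and the share of all genes was not computed beside it. The number at least 2-fold lower in KO resident-like cells was 0, and it was 1 at Leiden resolution 0.5, under gating, under the stricter filter and with high doublet scores removed, and 2 with each library clustered alone or at 1.5-fold, where 1 was higher. In monocyte-like cells the number lower was 1, and it was 3 at 1.5-fold and 0 under gating. Chosen after seeing the data, counting the Retnla cluster as resident gave 1 lower in resident-like cells, and keeping only the Ly6i and Cxcl9 cluster gave 2 lower in monocyte-like cells. Signs that turned after a 2-fold call were those of Ctsz in eosinophil-like cells at Leiden resolution 2 (0.12), Ctsc in neutrophil-like cells without cells holding a C1q UMI (0.19) and Ctsc in B cell-like cells with the lowest class level subtracted (0.20), the last 2 also chosen after seeing the data. The causes were not tested. Class sizes depended on the clustering. At Leiden resolution 0.5 resident-like cells numbered 796 WT and 317 KO in place of 315 and 131, and monocyte-like cells 89 and 340 in place of 560 and 381. No paired analysis was possible because each genotype has 1 library, and no replicate could be left out for the same reason.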
